A study of Mus musculus with 5 samples.

Results

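The receptors for interleukin-4 (IL-4) and interleukin-13 (IL-13) were followed across the cells of mouse skin through 6 genes of 31053 in the count matrices: the receptor chains Il4ra, Il13ra1, Il13ra2 and Il2rg, the kinase Jak1 and the transcription factor Stat6. The genes were chosen by symbol, and all 6 were found. Single-cell RNA sequencing with 10x 3′ v2 chemistry measured cells of ventral skin from C57BL/6J mice at 4 weeks (postnatal day 28). There were 3 libraries of Prx1Cre+Ikkbf/f mice (called Ikkb_cKO here) and 2 of wild-type mice (WT), and each library pooled 2 mice. In Ikkb_cKO the Cre, driven by a Prrx1 (Prx1) enhancer, acts in mesenchymal cells of that lineage, which include skin fibroblasts, and removes floxed Ikkb (Ikbkb), the kinase IKKβ that frees NF-kB from its inhibitors. The labels do not say which floxed or Cre alleles the WT mice carried, and the cells were sorted only against debris, DAPI-positive dead cells and aggregates. The series asks about Prx1+ fibroblasts in a setting of atopic dermatitis, an inflammatory skin disease in which both cytokines take part.

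IL-4 and IL-13 are the signature cytokines of type 2 immunity and share the chain IL-4Rα, the product of Il4ra. With the common gamma chain (Il2rg), which several other interleukin receptors also use, IL-4Rα forms the type I receptor that binds IL-4 and is typical of blood cells. With IL-13Rα1 (Il13ra1) it forms the type II receptor, which binds both cytokines and is found on fibroblasts, epithelium and myeloid cells. Janus kinases such as JAK1 sit on the chains and phosphorylate STAT6, which then enters the nucleus. IL-13Rα2 (Il13ra2) binds IL-13 tightly, has a short cytoplasmic tail and is known mainly as a decoy.

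The genes lie at separate loci in GRCm38 (mm10), by the GENCODE annotation, and all are protein-coding. Il4ra (ENSMUSG00000030748) is at chr7:125552120-125579474 on the plus strand, Stat6 (ENSMUSG00000002147) at chr10:127642986-127660957 on the plus strand and Jak1 (ENSMUSG00000028530) at chr4:101152367-101265282 on the minus strand. The X chromosome holds the other 3, with Il13ra1 (ENSMUSG00000017057) at chrX:36112110-36171259 on the plus strand, Il13ra2 (ENSMUSG00000031289) at chrX:147383476-147429192 on the minus strand and Il2rg (ENSMUSG00000031304) at chrX:101264378-101268255 on the minus strand. The 250 bases before the RefSeq start site of the 3 ligand-binding chains that were higher in Ikkb_cKO fibroblast-like cells are shown 5′ to 3′ on the gene's strand, from RefSeq on GRCm38.p6, to let their composition be compared. Capitals mark GC boxes (GGGCGG on either strand) in Il4ra (chr7:125552021-125552270, plus strand) and Il13ra1 (chrX:36111858-36112107, plus strand), and TATA boxes (TATAAA on either strand) in Il13ra2 (chrX:147429193-147429442, minus strand).
Il4ra: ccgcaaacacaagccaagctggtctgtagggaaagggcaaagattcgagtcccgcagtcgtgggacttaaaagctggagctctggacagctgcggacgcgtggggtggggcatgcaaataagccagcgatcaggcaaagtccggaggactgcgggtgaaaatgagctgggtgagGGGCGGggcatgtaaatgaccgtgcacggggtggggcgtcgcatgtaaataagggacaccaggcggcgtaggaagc
Il13ra1: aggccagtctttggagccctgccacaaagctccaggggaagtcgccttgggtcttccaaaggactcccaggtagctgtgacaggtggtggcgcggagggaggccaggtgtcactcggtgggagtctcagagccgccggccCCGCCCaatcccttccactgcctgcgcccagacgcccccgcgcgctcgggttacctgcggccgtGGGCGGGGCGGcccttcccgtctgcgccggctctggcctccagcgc
Il13ra2: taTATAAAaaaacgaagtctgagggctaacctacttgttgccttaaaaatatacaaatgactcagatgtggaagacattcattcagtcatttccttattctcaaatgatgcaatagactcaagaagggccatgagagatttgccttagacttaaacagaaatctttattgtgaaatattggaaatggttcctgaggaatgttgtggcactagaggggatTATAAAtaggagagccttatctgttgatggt

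The signalling chains Il4ra and Il13ra1 have promoters rich in G and C, at 59.6% with 17 CpG and 70.8% with 21 CpG, against medians of 52.4% and 6 CpG over 32851 mouse promoters. The decoy chain Il13ra2 has 36.0% G and C with 1 CpG, and TATAAA starts at -31 and at -248 from its start site. TATAAA occurred in 12.4% of all promoters and in 1 of the 6 genes. GGGCGG occurred in 32.7% of all promoters and in 3 of the 6, once in Il4ra, once in Jak1 and at 3 places in Il13ra1, of which the pair nearest the start site shares a base. None of the 6 windows held TTC and GAA with 4 bases between them, the spacing STAT6 prefers (5.85% of promoters), TTCNNNGAA, the spacing of other STATs (7.02%), or GGGA and TTTCC with 1 base between them, an NF-kB motif (0.356%), each on either strand. Among the remaining genes, Il2rg has 49.2% G and C with 3 CpG, Stat6 56.8% with 6 and Jak1 61.2% with 19. These matches describe the letters of the windows and were not compared with binding data.

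The matrices held 11084 cell barcodes, of which 10394 were kept and grouped by marker genes into 10 classes. Kept cells numbered 976, 912 and 2328 in Ikkb_cKO libraries 1, 2 and 3, against 3011 and 3167 in WT, and 68 barcode sequences occurred in more than 1 library. The median number of unique molecular identifiers (UMIs, counted transcript molecules) per cell ranged from 1606.5 to 2807 in Ikkb_cKO, against 3579 and 4023 in WT. In fibroblast-like cells these medians were 1559 to 2475 in Ikkb_cKO, against 4784.5 and 5234 in WT. Levels are therefore given as CPM, the UMIs of a gene relative to all UMIs of the summed cells of a class in a library. Ikbkb itself stood at 15.9, 20.4 and 15.6 CPM in Ikkb_cKO fibroblast-like cells, against 14.3 and 18.1 CPM in WT. The labels do not name the floxed exons and the reads come from transcript 3′ ends, so this level checks nothing about the deletion. The Y-linked genes Ddx3y, Eif2s3y, Uty and Kdm5d had 0 UMIs in every library. Xist, transcribed from the inactive X chromosome, stood at 328, 307 and 536 CPM in Ikkb_cKO, against 232 and 261 CPM in WT, which bears on the 3 X-linked members, and its part in their levels was not tested.

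The members of the type I and type II receptors were spread differently over the classes. Il4ra was broad: summed over libraries it had 210 CPM in Ikkb_cKO fibroblast-like cells (95% Poisson interval 197 to 223), 189 CPM in endothelial-like, 164 CPM in lymphocyte-like and 58.6 CPM in myeloid-like cells of the same genotype. In WT the order began with lymphocyte-like cells at 110 CPM, followed by fibroblast-like at 90.7, endothelial-like at 88.0, mast-like at 62.9 and myeloid-like cells at 39.8 CPM. Neighbours in this WT order had overlapping intervals, as did the first 6 in Ikkb_cKO. Il4ra was low in keratinocyte-like cells, at 13.1 CPM in Ikkb_cKO and 4.61 CPM in WT. These intervals cover counting error only.

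Il13ra1 was found mainly outside the lymphocyte-like class. It led in fibroblast-like cells of Ikkb_cKO at 59.3 CPM, ahead of keratinocyte-like cells at 36.7 and myeloid-like cells at 35.4 CPM, sums to which library 3 gave 299 of 317 keratinocyte-like and 550 of 855 myeloid-like cells. In WT it led in keratinocyte-like cells at 87.6 CPM (52.8 to 137), from only 38 cells, with mural-like cells at 50.2, myeloid-like at 35.1 and fibroblast-like cells at 29.1 CPM. Lymphocyte-like cells held 1 UMI of Il13ra1 in Ikkb_cKO and 1 in WT.

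Il2rg was the reverse, highest in lymphocyte-like cells at 507 CPM in Ikkb_cKO and 812 CPM in WT, and in mast-like cells at 427 CPM in Ikkb_cKO and 754 CPM in WT. Endothelial-like cells had 109 CPM of Il2rg in Ikkb_cKO and 140 CPM in WT, from 19 and 54 UMIs. Myeloid-like cells had 74.3 CPM of Il2rg in Ikkb_cKO and 98.98 CPM in WT. Fibroblast-like cells held 2 UMIs of Il2rg among 1896 Ikkb_cKO cells and 12 among 3697 WT cells, at 0.421 and 0.541 CPM. Fibroblast-like cells thus carried transcripts of the type II chains and almost none of the gamma chain. Lymphocyte-like cells carried those of the type I chains and almost none of Il13ra1.

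The shared signalling genes were found in every larger class. Jak1 had 300 CPM in lymphocyte-like cells of both genotypes, with 200 CPM in Ikkb_cKO and 136 CPM in WT fibroblast-like cells, and 136 CPM in Ikkb_cKO and 128 CPM in WT myeloid-like cells. Stat6 had 63.9 CPM in lymphocyte-like, 51.5 in myeloid-like and 27.8 in fibroblast-like cells of Ikkb_cKO, against 48.9, 53.1 and 29.5 CPM in the same classes of WT.

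**Figure D1:**
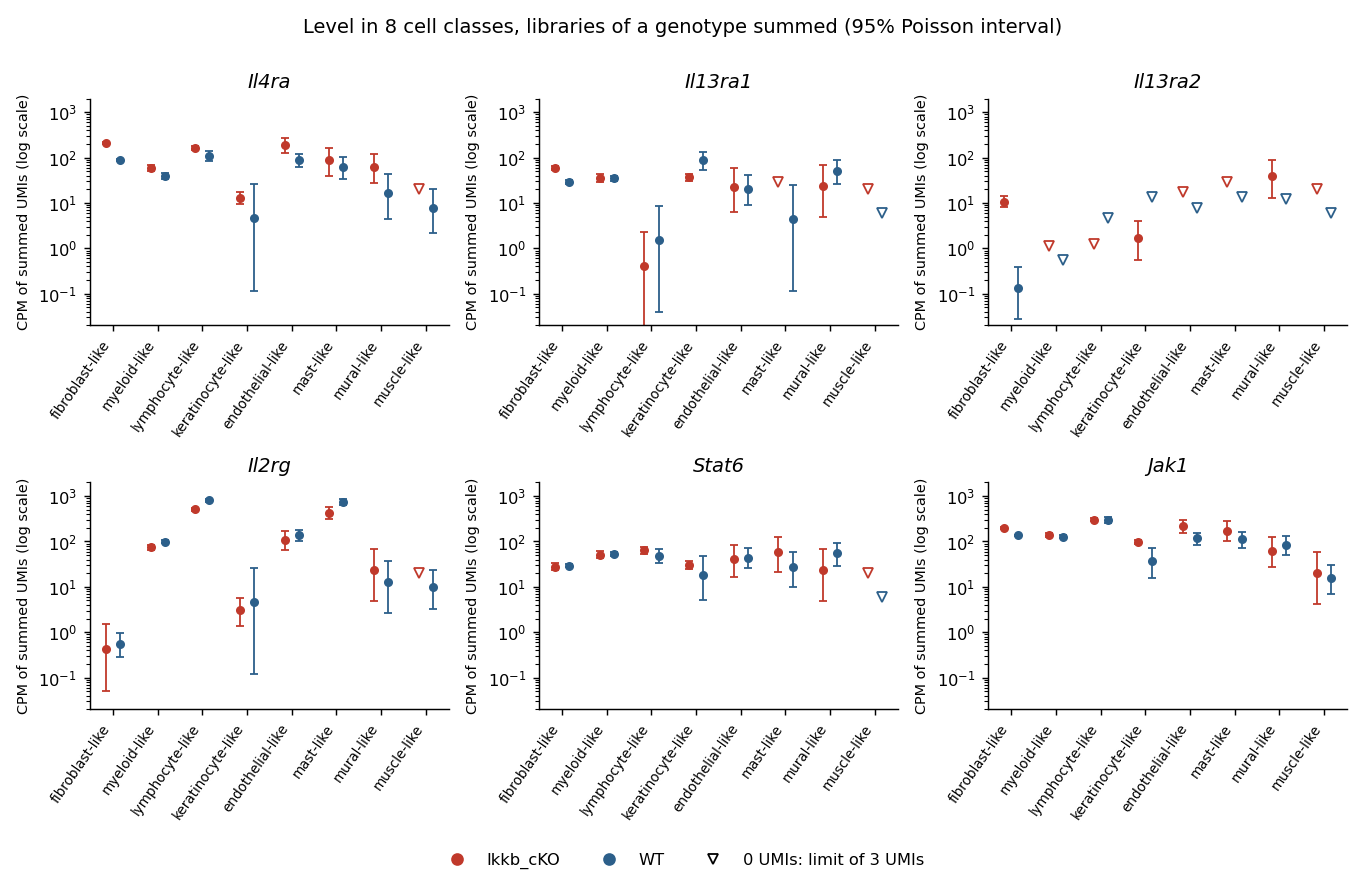
Level of each gene (CPM of summed UMIs, log scale) in 8 cell classes, with Ikkb_cKO points left of WT points and 95% Poisson intervals; open triangles mark the limit set by 3 UMIs where none was counted. Il2rg peaks in lymphocyte-like and mast-like cells, where Il13ra1 is at or near 0.

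In fibroblast-like cells both chains of the type II receptor and Jak1 were called higher in Ikkb_cKO, and Stat6 was not called. The decoy chain Il13ra2 passed the low-count filter only through the Ikkb_cKO libraries, so its counts are given without a test. In these cells 35.2% of all 10525 genes tested were called, 17.3% of all genes as higher, so a call on its own was common. Il4ra, the shared signalling chain, had 264, 250.5 and 171 CPM in Ikkb_cKO libraries 1, 2 and 3, against 92.1 and 89.4 CPM in WT. All Ikkb_cKO libraries lay above both WT libraries, and library 3 was the lowest of the 3. Il4ra rose by 1.28 on the log2 scale (SE 0.20, adjusted p = 0.0050, edgeR quasi-likelihood test, Benjamini-Hochberg over all genes tested). Without WT library 1 or 2 the adjusted p of Il4ra was 0.064 and 0.067, with folds of 1.29 and 1.24 on the log2 scale.

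Il13ra1, the partner chain of the type II receptor, had 58.8, 59.5 and 59.5 CPM in Ikkb_cKO, against 28.2 and 29.95 CPM in WT. The Ikkb_cKO libraries were close to one another and apart from WT. It rose by 0.99 on the log2 scale (SE 0.14, adjusted p = 0.0041, edgeR). The call was lost when cells were thinned to 1000 UMIs (0.51, adjusted p = 0.14) and when cluster 24 was left out (0.41, adjusted p = 0.32).

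Jak1, the kinase that serves IL-4Rα and many other cytokine receptors, had 188, 190.1 and 209 CPM in Ikkb_cKO, against 137 and 134 CPM in WT. The groups did not overlap, as was the case for 61% of all genes tested. It rose by 0.49 on the log2 scale (SE 0.13, adjusted p = 0.030, edgeR), and stood at 0.11 (adjusted p = 0.72) without cluster 24. Stat6, the factor that both receptors activate, had 20.9, 39.1 and 25.5 CPM in Ikkb_cKO, against 29.2 and 29.7 CPM in WT. The Ikkb_cKO libraries lay on both sides of WT, at -0.09 on the log2 scale (SE 0.24, adjusted p = 0.79, edgeR).

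Il13ra2, the decoy chain, was rare, with 64 UMIs in all kept cells and at most 3 in 1 cell. Fibroblast-like cells had 20, 11 and 20 UMIs of Il13ra2 in Ikkb_cKO, against 1 and 2 in WT, although the WT libraries held several times more UMIs. This amounts to 19.9, 9.77 and 7.62 CPM in Ikkb_cKO, against 0.0967 and 0.169 CPM in WT, with no overlap. The ratio of summed counts was 79.4 with a 95% counting interval of 25.7 to 398. This interval covers counting error only. Clusters 24 and 1 held 49 of the 51 UMIs of Ikkb_cKO fibroblast-like cells, in 38 of 40 cells with a UMI. Outside this class, Ikkb_cKO library 3 had 5 UMIs in mural-like and 5 in keratinocyte-like cells, while myeloid-like and lymphocyte-like cells had 0 in every library.

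**Figure D2:**
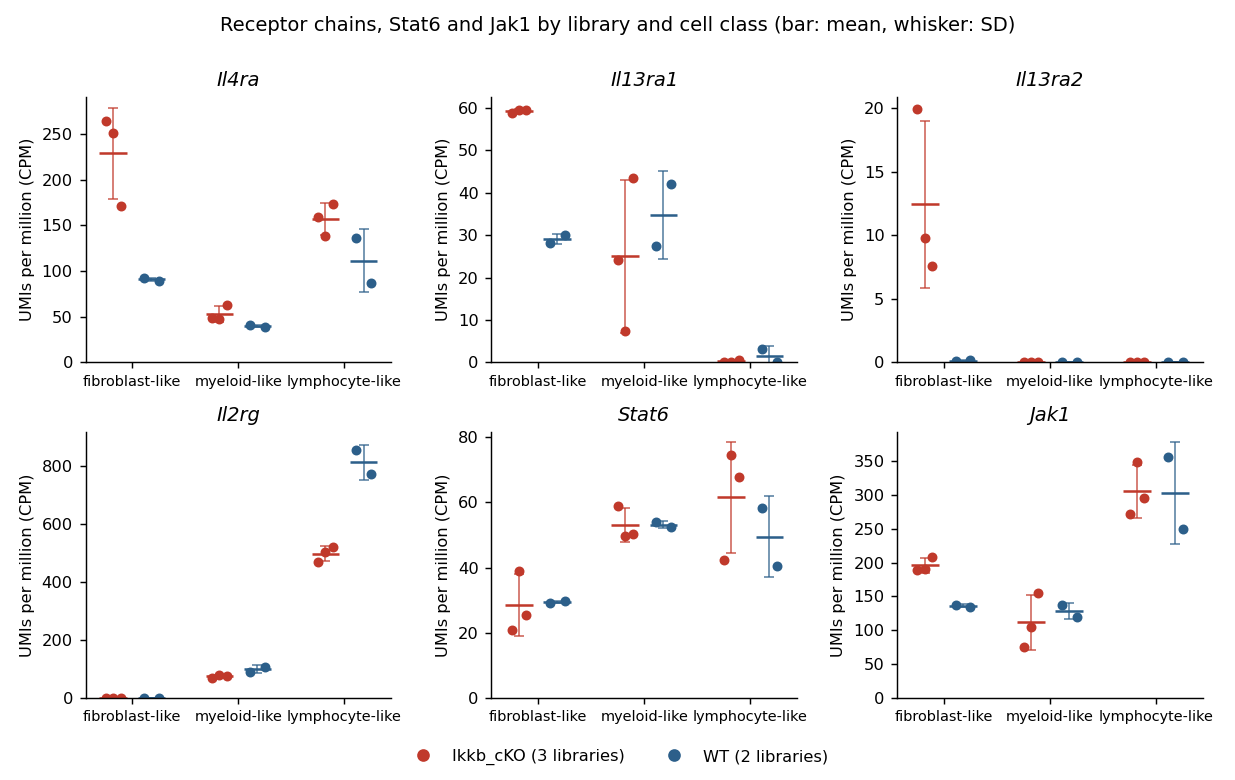
CPM of the 6 genes in fibroblast-like, myeloid-like and lymphocyte-like cells; each point is 1 library, with the 3 Ikkb_cKO libraries left of the 2 WT libraries, bars at the mean and whiskers of 1 SD. In fibroblast-like cells the Il4ra points are 171 to 264 CPM in Ikkb_cKO and 89.4 to 92.1 CPM in WT.

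Different clusters made up the fibroblast-like class in the 2 genotypes. Cluster 24, led by Ptx3, Col6a2, Postn and Tnfaip6, held 64.4, 63.4 and 12.2% of fibroblast-like cells in Ikkb_cKO libraries 1, 2 and 3, against 0.056 and 0% in WT. Cluster 0 held 43.8% in Ikkb_cKO library 3. Cluster 10, led by Mfap5 and Clec3b, held 15.4 and 16.9% in WT, and at most 0.379% in an Ikkb_cKO library. The class totals of the members therefore mix levels within clusters with the makeup of the class, so fewer cells of a kind and fewer transcripts per cell cannot be told apart in them.

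Il4ra had 271, 303 and 265 CPM in cluster 24 and 264, 211 and 257 CPM in cluster 1 of Ikkb_cKO, 2 clusters that WT almost lacked. In cluster 3, led by Fabp4 and Postn, Il4ra had 369.8 and 211 CPM in Ikkb_cKO libraries 1 and 2, against 44.9 and 49.7 CPM in WT. Library 3 is not given there, with only 7 cells. In cluster 0, the largest fibroblast-like cluster of Ikkb_cKO library 3, Il4ra by contrast had 78.0 CPM in that library, against 96.2 and 99.9 CPM in WT. In 2 clusters every library had at least 20 cells, so the genotypes could be tested. In cluster 4 Il4ra had 264, 146 and 214 CPM in Ikkb_cKO, against 79.8 and 91.1 CPM in WT. It rose there by 1.21 on the log2 scale (SE 0.27, adjusted p = 0.010, edgeR), where 25.7% of 2277 genes were called, 12.2% as higher, and 50.1% did not overlap between genotypes. In cluster 5 it had 279, 158 and 231 CPM in Ikkb_cKO, against 148 and 136 CPM in WT, again without overlap (62.2% of genes), and the difference of 0.56 (SE 0.23) did not pass (adjusted p = 0.078, edgeR; 42.1% called). The difference between the 2 folds, 0.65, did not pass its test (SE 0.33, adjusted p = 0.62, edgeR; 0.305% of genes called).

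The call in cluster 4 rested on few UMIs, 58 in Ikkb_cKO libraries together, and was lost without either WT library (adjusted p = 0.21 without library 1 and 0.15 without library 2) and without Ikkb_cKO library 3 (0.092). Left without cluster 24, the class as a whole had 254, 169 and 161 CPM of Il4ra in Ikkb_cKO, against 92.0 and 89.4 CPM in WT. This sum keeps cluster 1, which held 6.82, 7.09 and 26.2% of fibroblast-like cells in Ikkb_cKO, against 0.224 and 0.105% in WT. It therefore still mixes levels within clusters with the makeup of the class.

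Il13ra1 varied widely between clusters. It had 85.7, 80.5 and 123 CPM in cluster 24 of Ikkb_cKO and 92.6 and 107 CPM in cluster 10 of WT, clusters that the other genotype almost lacked. In WT it was at 6.01 and 6.45 CPM in cluster 3 and at 5.77 and 3.12 CPM in cluster 16. In cluster 4 the Il13ra1 UMIs were 2, 1 and 6 in Ikkb_cKO and 2 and 1 in WT, too few for the test. Without cluster 24 the class had 19.6, 27.1 and 52.5 CPM of Il13ra1 in Ikkb_cKO, against 27.9 and 29.95 CPM in WT, and the genotypes overlapped.

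**Figure D3:**
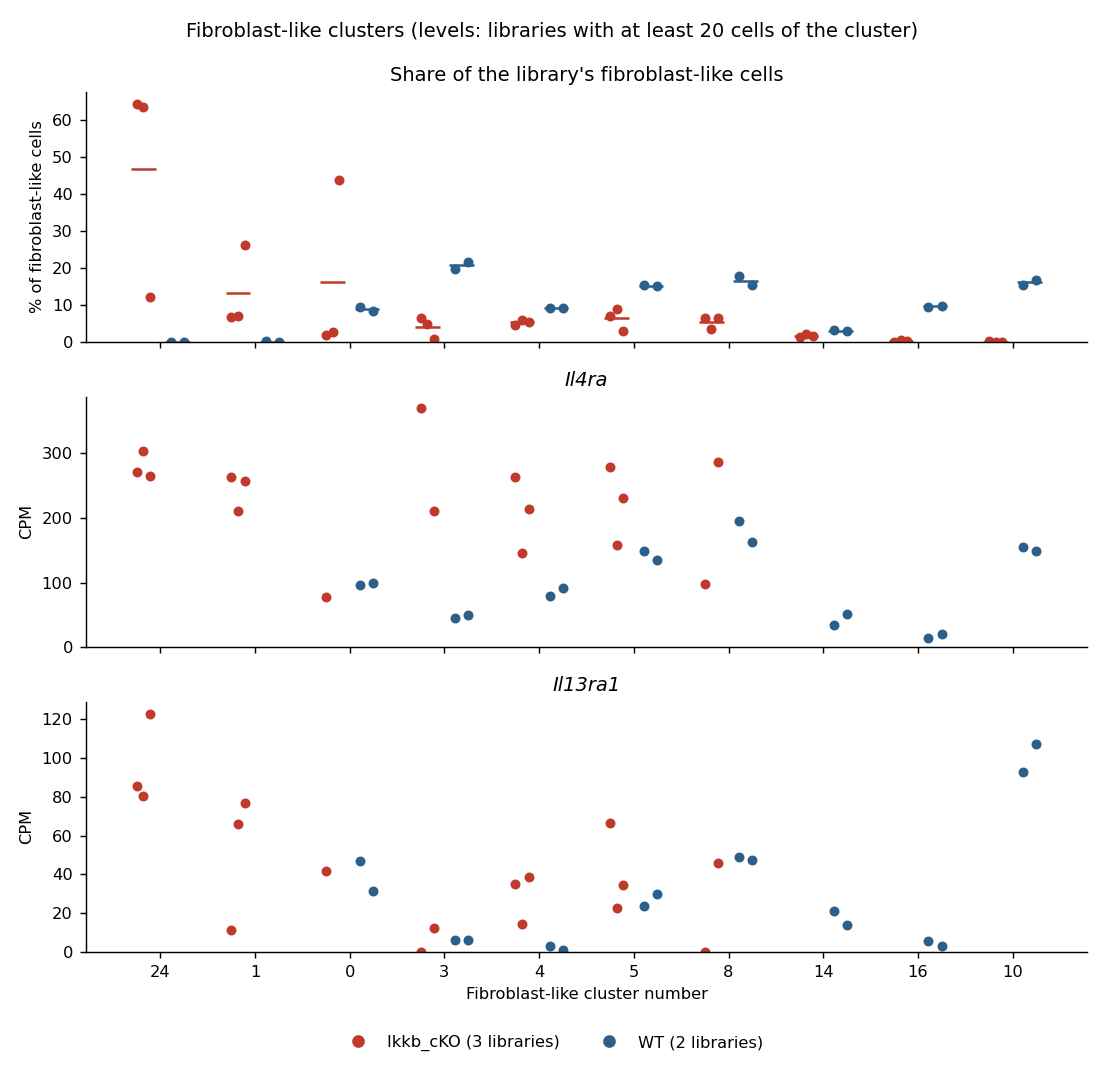
Share of each library's fibroblast-like cells (top, percent; bars at the mean) and CPM of Il4ra and Il13ra1 (middle and bottom) in 10 fibroblast-like clusters, Ikkb_cKO points left of WT points; levels are shown for libraries with at least 20 cells of the cluster. Cluster 24 holds 12.2 to 64.4% of Ikkb_cKO cells, and Il4ra there is 265 to 303 CPM.

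The share of cells with a transcript depends on depth, so cells were also thinned to 1000 UMIs each and shallower cells were left out (145, 111 and 132 fibroblast-like cells in Ikkb_cKO, 89 and 82 in WT). Il4ra was then seen in 22.98, 23.5 and 14.2% of Ikkb_cKO fibroblast-like cells, against 10.1 and 9.52% of WT cells. Before thinning these shares were 32.6, 37.2 and 29.5% in Ikkb_cKO, against 32.4 and 32.3% in WT. Stat6 lay the other way, in 1.57 to 2.61% of thinned Ikkb_cKO cells, against 3.39 and 3.59% of WT cells (exact permutation p = 0.1, 3.79 to 7.32% in Ikkb_cKO and 14.9 and 16.1% in WT before thinning). At 500 UMIs a cell the Stat6 shares overlapped, at 1.33 to 1.82% in Ikkb_cKO and 1.41 to 1.73% in WT. With 10 ways to split 5 libraries no two-sided exact permutation test can go below p = 0.1, and that of the thinned Il4ra shares gave p = 0.2. Muscle-like cells, taken as a background class, showed Il4ra in 0 of 21 thinned cells of Ikkb_cKO library 2, and in 0 of 64 and 0 of 55 in WT, with upper Wilson limits of 15.5, 5.66 and 6.53%. Their median depth was 2381 UMIs in that library, and 2123 and 3023 UMIs in WT. Il4ra and Il13ra1 were seen together in 0.783, 1.31 and 0.809% of thinned fibroblast-like cells of Ikkb_cKO, against 0.647 and 0.438% of WT cells (exact permutation p = 0.2). Il2rg appeared in 0 of 383, 383 and 742 thinned fibroblast-like cells of Ikkb_cKO, and in 0 of 1699 and 1 of 1827 of WT, a background share.

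In myeloid-like cells none of the 5 members tested was called, where 18% of 8986 genes were. Il4ra had 48.3, 47.3 and 63.0 CPM in Ikkb_cKO, against 40.8 and 39.0 CPM in WT. The genotypes did not overlap, as for 45.4% of genes, and the log2 difference of 0.50 (SE 0.22) did not pass (adjusted p = 0.14, edgeR). Il2rg had 69.7, 77.1 and 74.5 CPM in Ikkb_cKO, against 89.0 and 108 CPM in WT, or -0.39 on the log2 scale (adjusted p = 0.23, edgeR). Il13ra1 had 24.1, 7.46 and 43.6 CPM in Ikkb_cKO, against 27.3 and 42.1 CPM in WT, an overlap that spanned the whole WT range. Stat6 had 59.0, 49.7 and 50.4 CPM in Ikkb_cKO, against 53.9 and 52.4 CPM in WT. Jak1 had 75.1, 104 and 155 CPM in Ikkb_cKO, against 137 and 120 CPM in WT. Both overlapped between genotypes.

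Within the myeloid-like class the dendritic-like cluster 13, led by Cd209a, Cd209d and Ccr7, had less of the gamma chain. Il2rg stood there at 155, 197 and 112 CPM in Ikkb_cKO, against 253 and 278 CPM in WT, without overlap, as for 37.8% of genes. It fell by 1.07 on the log2 scale (SE 0.30, adjusted p = 0.024, edgeR), where 9.44% of genes were called, 5.01% as lower. This call was lost without either WT library (adjusted p = 0.19 and 0.41) and without Ikkb_cKO library 3 (-0.72, adjusted p = 0.080). In cluster 15, led by Retnla and Lyz1, Il2rg had 63.3, 89.1 and 78.8 CPM in Ikkb_cKO, against 70.3 and 72.4 CPM in WT. The difference between the 2 clusters' folds, -1.18 (SE 0.37), did not pass (adjusted p = 0.10, edgeR; 1.06% of genes called).

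Il4ra did not pass the test in the same 2 clusters. In cluster 13 it had 41.4, 98.5 and 92.7 CPM in Ikkb_cKO, against 31.6 and 31.4 CPM in WT (log2 fold change 1.22, SE 0.41, adjusted p = 0.060, edgeR). In cluster 15 it had 79.1, 35.6 and 55.01 CPM in Ikkb_cKO, against 25.4 and 27.3 CPM in WT (0.93, SE 0.34, adjusted p = 0.077, edgeR). No library of one genotype reached into the other's range in either cluster. In cluster 15, where 13.9% of genes were called, this held for 40% of genes. The other dendritic-like cluster, 6, also had at least 20 cells in every library. Il13ra1 was the only member with enough UMIs for the test there, and it was not called (-0.17, SE 0.74, adjusted p = 0.92, edgeR).

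The test of whether a fold differed between classes gave, for fibroblast-like minus myeloid-like cells, 0.80 (SE 0.29) for Il4ra, 1.25 (SE 0.42) for Il13ra1 and 0.74 (SE 0.25) for Jak1 on the log2 scale. None of these differences passed (adjusted p = 0.085, 0.077 and 0.065, edgeR with library as a block), where 11.7% of genes did. Without Ikkb_cKO library 3 all passed, at 1.3045, 2.26 and 1.04 (adjusted p = 0.00043, 0.00024 and 0.00090). For Il4ra in fibroblast-like minus lymphocyte-like cells it gave 0.58 (adjusted p = 0.44, edgeR, 2.37% called), and 0.86 without library 3 (adjusted p = 0.0496, edgeR). Leaving out another Ikkb_cKO library in place of library 3 let none of these differences pass.

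**Figure D4:**
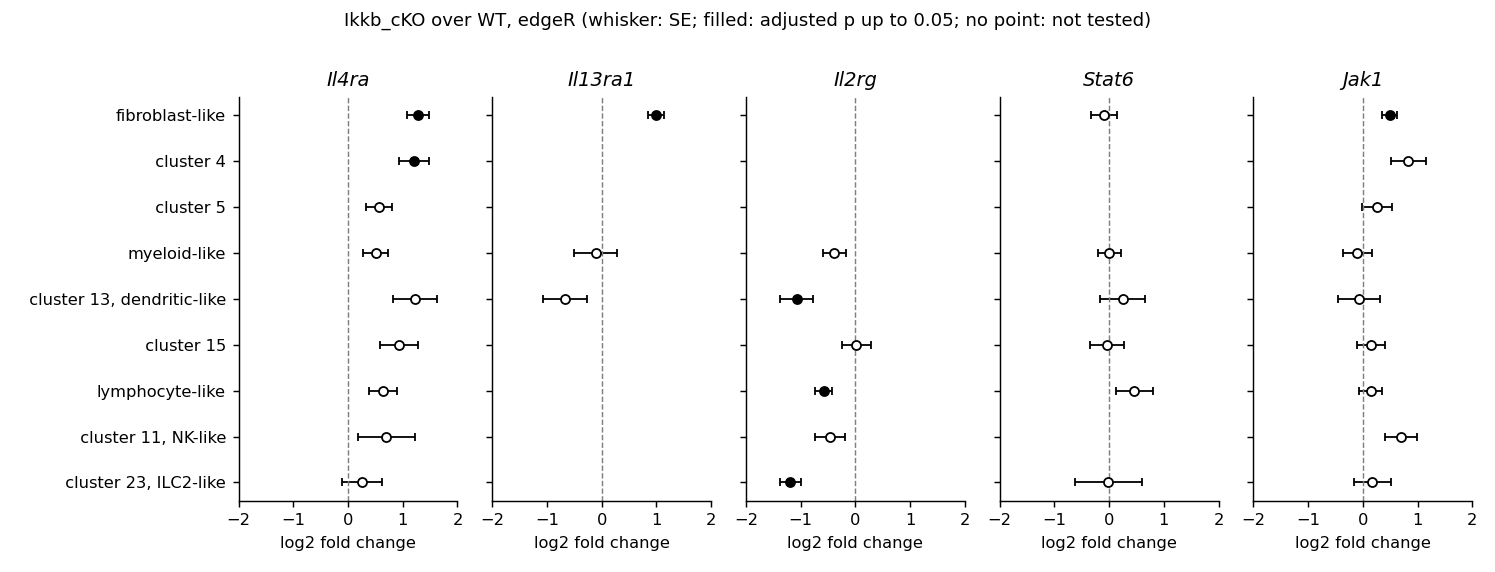
Log2 fold change of Ikkb_cKO over WT for 5 genes in the classes and clusters with at least 20 cells in every library (edgeR; whiskers are 1 SE, filled points passed an adjusted p of 0.05, and no point means not tested). Il4ra lies right of 0 in every class and cluster tested, with filled points in fibroblast-like cells (1.28) and cluster 4 (1.21), while Il2rg is filled at -0.58, -1.07 and -1.19.

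In lymphocyte-like cells Il2rg was the only member of the 4 tested that was called, where 10.4% of 5319 genes were, 3.82% as lower. Il2rg, the gamma chain, had 470, 502 and 521 CPM in Ikkb_cKO, against 857 and 772 CPM in WT. The Ikkb_cKO libraries were close together and all below WT, as non-overlap held for 48.1% of genes. It fell by 0.58 on the log2 scale (SE 0.16, adjusted p = 0.034, edgeR). Leaving out any library but Ikkb_cKO library 3 ended the call, with folds of -0.65 to -0.51 and adjusted p up to 0.28. Il4ra had 159, 138 and 173 CPM in Ikkb_cKO, against 136 and 87.0 CPM in WT, or 0.64 on the log2 scale (adjusted p = 0.13, edgeR). Stat6 had 42.3, 74.7 and 67.8 CPM in Ikkb_cKO, against 58.2 and 40.6 CPM in WT. Jak1 had 272, 348 and 295 CPM in Ikkb_cKO, against 356 and 249 CPM in WT. Stat6 and Jak1 overlapped between genotypes.

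Among the lymphocyte-like clusters tested, Il2rg fell in cluster 23, an ILC2-like cluster led by Il13, Il5 and Arg1. The cluster is named after group 2 innate lymphoid cells, a tissue source of type 2 cytokines. Its CD3 transcripts were not examined, and whether it also holds T cells that make these cytokines was not tested. Its levels may therefore mix kinds of cell. From 171, 140 and 288 UMIs in 140, 103 and 197 cells, Il2rg came to 529, 546 and 539 CPM in Ikkb_cKO. In WT the 26 and 26 cells had 80 and 73 UMIs, or 1514 and 1216 CPM. The Ikkb_cKO values lay within a narrow band below both WT values, and 47% of genes did not overlap. Il2rg fell there by 1.19 on the log2 scale (SE 0.19, adjusted p = 0.00030, edgeR), where 10.6% of 3178 genes were called, 4.22% as lower. The call was kept under every alternative that was run on single clusters. Thinned cells, other cell filters, other cluster resolutions and leaving out cells with another class's marker were run on whole classes only. In the NK-like cluster 11 it had 235, 439.8 and 416 CPM in Ikkb_cKO, against 567 and 545 CPM in WT, which did not pass (-0.46, SE 0.27, adjusted p = 0.30, edgeR; 7.93% called and 43% not overlapping). The folds of clusters 23 and 11 differed by -0.66 (SE 0.31, adjusted p = 0.31, edgeR; 2.75% called), which did not pass.

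The same order of Il2rg held in the remaining clusters, where too few cells allowed no test. The T-cell-like cluster 28, with Foxp3 and Ctla4, had 733, 522 and 635 CPM in Ikkb_cKO, against 1273 and 769 CPM in WT. Cluster 22, with Il17a and Trdc, had 444, 394 and 542 CPM in Ikkb_cKO, against 1277 and 782 CPM in WT. Cluster 12 had 444, 195 and 509.7 CPM in Ikkb_cKO, against 653 and 730.1 CPM in WT. Il4ra in the ILC2-like cluster had 151, 176 and 161 CPM in Ikkb_cKO, against 189 and 117 CPM in WT (0.25, SE 0.37, adjusted p = 0.74, edgeR), with all Ikkb_cKO libraries between the WT libraries.

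After thinning to 1000 UMIs, Il2rg was seen in 32.6, 36.9 and 41.6% of Ikkb_cKO lymphocyte-like cells, against 59.3 and 45.8% of WT cells, with no overlap and the smallest exact permutation p possible, 0.1. Il4ra was seen in 14.5, 12.5 and 16.9% of Ikkb_cKO cells, against 11.4 and 7.48% of WT cells (exact permutation p = 0.2). Transcripts of fibroblasts were more frequent in WT lymphocyte-like cells: a UMI of Col1a1 or Col3a1 was present in 7.26 to 8.23% of Ikkb_cKO cells, against 23.1 and 31.9% of WT cells. The 49 fibroblast markers together had 131 to 728 CPM in Ikkb_cKO, against 288 and 2268 CPM in WT. With such cells left out, the Il2rg fold was -0.52 (adjusted p = 0.065, edgeR).

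**Figure D5:**
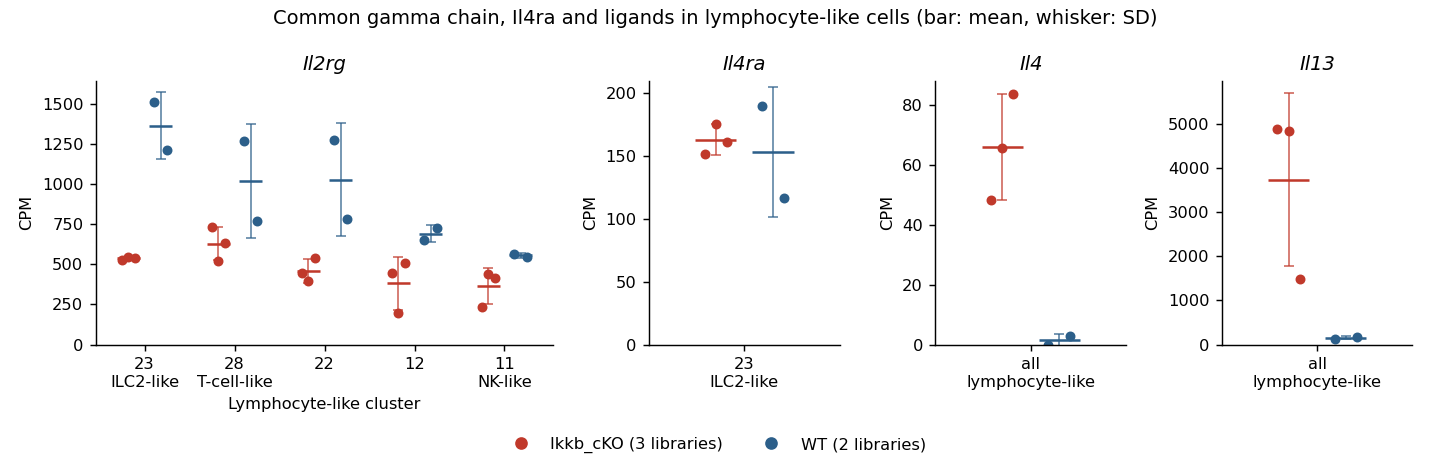
CPM of Il2rg in 5 lymphocyte-like clusters, of Il4ra in cluster 23 and of the ligand genes Il4 and Il13 in all lymphocyte-like cells; each point is 1 library, Ikkb_cKO left of WT, with bars at the mean and whiskers of 1 SD. In clusters 28, 22 and 12 some libraries have under 20 cells; Il2rg in cluster 23 is 529 to 546 CPM in Ikkb_cKO and 1216 to 1514 CPM in WT.

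Of the 2 ligand genes, Il4 was counted among lymphocyte-like cells almost only in those of Ikkb_cKO. Il4 had 24, 29 and 126 UMIs in Ikkb_cKO, against 0 and 1 in WT, or 48.4, 65.6 and 83.8 CPM in Ikkb_cKO, against 0 and 2.90 CPM in WT. Il4 passed the low-count filter only through the Ikkb_cKO libraries, so no test of it is given. In cluster 23 Il4 had 23, 28 and 117 UMIs in Ikkb_cKO and 0 and 0 in WT. Il13 had 4897, 4839.7 and 1480.2 CPM in Ikkb_cKO lymphocyte-like cells, against 129 and 174 CPM in WT, with no overlap. The difference of 4.76 on the log2 scale (SE 0.87) did not pass (adjusted p = 0.060, edgeR). Il13 is among the markers used to name this class, so these values are not independent of how its cells were chosen. Il13 leads the definition of cluster 23, so no test of it is given there. Mast-like cells of both genotypes held the ligands, with Il4 at 1106, 1294 and 2106 CPM in Ikkb_cKO, against 1095 and 862 CPM in WT. These values come from only 25, 8 and 18 cells in Ikkb_cKO and 35 and 40 cells in WT, too few for a test. Fibroblast-like cells also held a few Il13 UMIs, 7, 7 and 3 in Ikkb_cKO, against 2 and 1 in WT. Il13 passed the low-count filter there only through Ikkb_cKO libraries, so no test of it is given. Cells with a Ptprc UMI made up 0 to 0.607% of fibroblast-like cells in Ikkb_cKO and 0.105 to 0.168% in WT. Whether these Il13 UMIs come from free RNA was not tested.

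Of the other signalling genes of the pathway in fibroblast-like cells, 5 of 12 tested rose and none fell, with a median log2 fold change of 0.63, against 0.04 over all genes, of which 17.3% rose and 17.9% fell. They were Stat3 (0.83), Stat5b (0.83) and Jak2 (1.25), which serve many cytokine receptors, and the adaptors Grb2 (0.52) and Irs1 (1.36), the last a docking protein of IL-4Rα. Among 6 feedback inhibitors Cish (1.98), Socs5 (1.52) and Socs7 (1.44) rose, whereas Socs1 (-0.74), an inhibitor of JAK kinases, fell. Of 11 chains of other receptors that use JAK1, whichever chain holds the kinase, 4 rose. These were the interleukin-6 receptor chains Il6ra (2.16) and Il6st (1.10), the oncostatin M receptor Osmr (1.57) and Il11ra1 (0.91). The interferon receptor chains Ifngr2 (-1.29) and Ifnar2 (-0.57) fell. The 1 gamma-chain partner tested did not pass, and Crlf2, which with IL-7Rα forms the TSLP receptor without the gamma chain, fell by 1.79 on the log2 scale.

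Genes known as IL-4 and IL-13 targets of fibroblasts moved both ways, with 3 of 17 higher and 4 lower in Ikkb_cKO fibroblast-like cells, shares near those of all genes (17.3% and 17.9%). Il6 (2.07), Cish (1.98) and the collagen cross-linking enzyme Lox (0.76) rose. Lox is among the markers used to name this class, so its call is not independent of how its cells were chosen. The chemokine Ccl2 (-1.12), the protease inhibitor Timp1 (-1.30), the matrix protein Tnc (-1.48) and Socs1 fell. Within the 2 clusters tested none of the list fell. In cluster 4, 5 of 14 rose, where 25.7% of all genes were called in either direction, 12.2% as higher. In cluster 5, 4 of 12 rose, where 42.1% of all genes were called, 21.3% as higher. Lists of 14 and 12 genes are too short for the lack of falls to be read as a result. Timp1 went against its class total, at 548 CPM in Ikkb_cKO and 245 CPM in WT in cluster 5 (1.17, adjusted p = 0.0015, edgeR, means of TMM-normalised CPM) and at 437 CPM in Ikkb_cKO and 392.1 CPM in WT in cluster 4 (0.22, adjusted p = 0.62). Of the 10 genes tested in the whole class from the macrophage target list, 3 rose and 3 fell.

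In myeloid-like cells the targets known from macrophages also divided, with 7 of 21 higher and 5 lower, where 8.64% of all genes rose and 9.33% fell. Macrophage-like cluster 7, led by Pf4 and Apoe, held 9 of 140, 20 of 165 and 112 of 550 myeloid-like cells in Ikkb_cKO, against 403 of 815 and 397 of 864 in WT, so these class totals too mix makeup with level. The chemokine Ccl17 (4.30), the chitinase-like Chil3 (3.76), Cish (3.17) and the inhibitory ligand gene Pdcd1lg2 (4.84) rose, and the lectin receptors Clec10a (-1.67) and Mrc1 (-1.01) fell. Clec10a, Mrc1, Retnla, Mgl2, Cd209a and Ear2 of this list are among the markers used to name the class. Their part in these counts is not independent of how its cells were chosen. Mrc1 went against its class total in clusters 15 and 13, without passing. It was at 313 CPM in Ikkb_cKO and 246 CPM in WT in cluster 15 (0.38, adjusted p = 0.26, edgeR). In cluster 13 it was at 212 CPM in Ikkb_cKO and 155 CPM in WT (0.61, adjusted p = 0.27, edgeR). In cluster 15 the list had 6 of 19 higher and 1 lower, where 13.9% of 6266 genes were called in either direction. In cluster 13 it had 4 of 14 higher and 2 lower, where 9.44% of 4387 genes were called, 5.01% as lower. Retnla and Ear2 of this list are leading genes of cluster 15, as Cd209a and Ccl17 are of cluster 13. In the whole myeloid-like class the signalling list had 5 of 14 higher and 0 lower, including Jak2 (2.37) and Stat5a (1.97). Among feedback inhibitors 3 of 5 rose, Cish, Socs2 (2.44) and Socs1 (1.71), and Socs3 (-0.99) fell. Of 10 chains of other JAK1-using receptors 0 rose and 2 fell, Ifnar2 (-0.98) and Il10rb (-0.79), and none of 3 gamma-chain partners passed. Of the 14 genes tested from the fibroblast target list 5 rose and 8 fell, with Col1a1 (-1.44), Col3a1 (-1.64) and Postn (-1.91) among those that fell. A UMI of Col1a1 or Col3a1 was present in 6.67 to 12.1% of Ikkb_cKO myeloid-like cells, against 20 and 24.7% of WT cells, and the part of such cells in these calls was not tested.

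In lymphocyte-like cells the chains that pair with the gamma chain were read beside Il2rg. Of 5 tested, 3 rose and none fell, where 6.58% of all genes rose and 3.82% fell. On the log2 scale the interleukin-2 receptor chain Il2ra rose by 1.65 (SE 0.26), Il9r by 2.39 (SE 0.48) and Il7r by 0.93 (SE 0.21). Il2ra and Il7r are among the markers used to name this class, so their calls are not independent of how its cells were chosen. Cluster 23 held 140 of 231, 103 of 179 and 197 of 509 lymphocyte-like cells in Ikkb_cKO, against 26 of 130 and 26 of 113 in WT. Within it 0 of 4 partners passed (6.39% of all genes rose), with Il2ra at 678 CPM in Ikkb_cKO and 496 CPM in WT (0.44, adjusted p = 0.26, edgeR), Il7r at 687 CPM in Ikkb_cKO and 620 CPM in WT (0.16, adjusted p = 0.75) and Il9r at 89.7 CPM in Ikkb_cKO and 44.9 CPM in WT (0.99, adjusted p = 0.32). Of 14 signalling genes 4 rose, Irs2 (2.76), Jak2 (1.61), Stat3 (1.42) and Stat5a (1.79), and the phosphatase gene Ptpn6 (-1.32) fell. Among 8 chains of other JAK1-using receptors Il10ra (2.35) rose and Ifngr1 (-0.72) fell. Of 4 feedback inhibitors Cish (1.28) rose. The macrophage list had 3 of 10 higher, Irf4 (1.96), Cish and Ccl24 (4.90), and the fibroblast list 3 of 9, with Il1rl1, the interleukin-33 receptor (3.22). Il1rl1 is a leading gene of cluster 23 and a marker used to name the class, so its call is not independent of that choice either. All of these calls are from edgeR over all genes of the class, and several genes stand on more than 1 list.

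The genes whose level over the 10 classes was most like 4 of the members were found by Pearson correlation of log2(CPM + 10) among 10671 genes, as a description over classes that share libraries and depth. Il4ra was most like Fyn (r = 0.96), a tyrosine kinase gene, then Slc25a36 and Dock11. Il2rg was most like Tgfb1 (0.93), Ppp1r11 and Adgre5. Stat6 was most like Pak2 (0.97), Fosl2 and Pdcd6, and Jak1 was most like Galnt1 (0.97), Dock11 and Prr13. Il13ra2 had fewer than 200 UMIs and was not ranked.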

How the data were processed

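The authors deposited 1 matrix of raw UMI counts for each library. The submitters' processing notes name Cell Ranger 1.3.0 and the mm10 build, while the matrices carry software version 3.0.1 per the file headers. How Cell Ranger was set is not stated there. All 5 libraries were used, grouped by their genotype labels.

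Barcodes needed 300 or more genes and no more than 10% of UMIs from mitochondrial genes. Scrublet's own threshold marked 18 barcodes (0.162%), so the expected number of top scores per library was removed instead, 238 in all (2.15%). Cells were scaled to 10000 counts, logged, reduced to 2000 variable genes and 30 components, and grouped by the Leiden method (15 neighbours, resolution 1.0) into 30 clusters. A cluster was named where 3 or more markers of 1 class stood among its 50 leading genes, 2 more than for any other class, and the first 10 did not go against the name, which left 1 cluster of 30 unnamed. The names rest on transcripts alone, hence "-like". The members, gene lists and markers were chosen with earlier results of these data known. Crlf2 was taken off the list of gamma-chain partners after its values were seen.

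Counts were summed per library and class or cluster, with at least 20 cells in every library for a test. edgeR's robust quasi-likelihood test compared Ikkb_cKO with WT after filterByExpr and TMM, with Benjamini-Hochberg adjustment over all genes of the class and a threshold of 0.05. Differences between classes were tested as an interaction with library as a block. CPM values are plain and fold changes are on the TMM scale. Shares were compared by an exact permutation of genotype over libraries (10 arrangements), with intervals by Wilson's method. The 6 members are always named, and from each pathway list up to 4 passing genes with the smallest p, with both ligands. Each library pools 2 mice, so p-values measure the spread between 5 such pools. With these counts, 95% intervals and the limit of 3 UMIs cover counting error only.

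The edgeR test was checked on simulated data. Alternatives were leaving out each library, other tools, normalisations and low-count filters. For whole classes only, they were also other cell filters, cluster resolutions and depths. Summing Ikkb_cKO libraries 1 and 2, leaving out cluster 24, and the tests between pairs of clusters were chosen after seeing the data. Tools were Python 3.11.15, scanpy 1.11.5, igraph 0.11.9, R 4.3.3, edgeR 4.0.16, limma 3.58.1 and DESeq2 1.42.0. Promoter sequences are RefSeq's on GRCm38.p6, matched by symbol for 6 of 6 genes. The genes most like Il13ra1 are not reported here.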

Additional observations from a re-analysis of the deposited data

How the results depend on the processing

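In fibroblast-like cells the directions of Il4ra, Il13ra1, Il13ra2 and Jak1 held under every alternative run. Leaving out 1 library at a time gave log2 fold changes of 1.18 to 1.44 for Il4ra, 0.93 to 1.02 for Il13ra1, 0.42 to 0.54 for Jak1 and -0.31 to 0.063 for Stat6. The calls lost without a WT library have 1 sample in that arm, assumed to vary like the others. Jak1 was also lost with no low-count filter (0.40), with Ikkb_cKO libraries 1 and 2 summed (0.54), with thinned cells (0.52) and without cluster 24 (0.11). Il13ra1 was lost with thinned cells (0.51) and without cluster 24 (0.41). Genes called numbered 477 to 5457 as libraries were left out and 2014 with thinned cells, against 3707.

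In myeloid-like cells, leaving out 1 library gave -1.15 to 0.19 for Il13ra1, -0.48 to 0.11 for Jak1 and -0.041 to 0.056 for Stat6. Jak1 turned positive with libraries summed (0.0077) and thinned cells (0.16). Stat6, at 0.00, turned negative with no low-count filter (-0.060), at least 10 UMIs in every library (-0.10), cell filters of 200 genes and 20% (-0.021) or 500 genes and 5% (-0.049), no doublet removal (-0.011) and thinned cells (-0.40). Genes called numbered 404 to 1862 as libraries were left out, 900 with DESeq2, 871 with at least 10 UMIs and 919 with thinned cells, against 1614.

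In lymphocyte-like cells Il2rg stayed lower at -0.65 to -0.51 as libraries were left out. Its call was lost with DESeq2 (-0.59), no low-count filter (-0.54), at least 10 UMIs (-0.50), libraries summed (-0.57), thinned cells (-0.66) and cells with another class's marker left out (-0.52). Jak1 ranged from -0.087 to 0.42 as libraries were left out and was -0.0040 with thinned cells. Genes called numbered 83 to 1065 as libraries were left out, 334 with DESeq2, 917 with limma's voom, 859 with no low-count filter, 245 with libraries summed and 237 with thinned cells, against 553. In cluster 15 Il2rg was -0.062 with no low-count filter, and -0.057 to 0.091 as libraries were left out. The thinned share of cells with both Il4ra and Il2rg differed by -1.61 to 3.84 percentage points, Ikkb_cKO minus WT, as libraries were left out. In cluster 4 Il4ra lost its call with no low-count filter (0.86), and in cluster 13 Il2rg lost it with DESeq2 (-1.03). For each of these the cause was not tested.

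The libraries share only replicate numbers: deviations of same-numbered libraries correlated at -0.041 to 0.035. With the number as a replicate block, Il4ra, Il13ra1 and Jak1 in fibroblast-like cells were 1.45, 0.97 and 0.42 and kept their calls, as did Il2rg in lymphocyte-like cells (-0.59) and in cluster 23 (-1.19). Il4ra in cluster 4 (1.15, adjusted p = 0.096) and Il2rg in cluster 13 (-0.79, adjusted p = 0.11) lost theirs, by edgeR. Il13ra2 and Il2rg in fibroblast-like cells and Il13ra1 in lymphocyte-like cells had too few UMIs for folds to be more than counting ratios.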
